A study of Mus musculus with 2 samples.

Results

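Hair follicle stem cells (HF-SCs) rest in the bulge of the follicle and are known by a set of transcription factors. Values are given here for 10 of them, Sox9, Lhx2, Nfatc1, Tcf7l1, Tcf7l2, Tbx1, Foxc1, Nfib, Nfix and Runx1, chosen by name and taken from a feature table of 31053 genes. Back skin was taken on postnatal day 53 from 1 control mouse and 1 miR-205-inducible mouse, and each mouse gave 1 single-cell RNA-seq library. The inducible mouse joined a Krt14-rtTA driver to a doxycycline-responsive miR-205 transgene, so induction was expected in cells with Krt14 promoter activity. Both mice were gender matched, were labelled C57BL/6 and carried the nuclear reporter K14-H2BGFP. From postnatal day 49 the mice ate doxycycline chow over 4 days. The extraction protocol states this for both, although 1 label of the control reads untreated. Cells were sorted so that epidermal, follicle and dermal cells entered at 3:5:2, and the sort therefore sets how many cells of each compartment were seen. The study asked what a rise of miR-205 does to resting follicle stem cells, and the comparison here asks where these 10 factors were expressed and how their transcripts differed between the libraries.

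The old bulge holds resting stem cells, the hair germ beneath it holds primed progenitors, and the inner bulge is a differentiated layer that keeps the stem cells quiet. Sox9, an HMG-box factor, and Lhx2, a LIM-homeodomain factor, maintain the stem cell state. Nfatc1 and Foxc1 are known to hold bulge cells in quiescence, Runx1 favours their activation, Tbx1 supports self-renewal, Nfib and Nfix keep stem cell enhancers in use, and Tcf7l1 and Tcf7l2 bind the DNA sites at which β-catenin acts in WNT signalling. miR-205 is an abundant microRNA of skin epithelium, and a microRNA binds transcripts mainly through its seed.

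The mature miR-205-5p is shown because its seed defines the sites searched for in the 10 genes. Its sequence (RefSeq, build GRCm38.p6, chromosome 1, minus strand, 193507503 to 193507524) is written 5′ to 3′ with the seed, bases 2 to 8, in capitals.
mmu-miR-205-5p: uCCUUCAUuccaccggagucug
The complement of that seed, ATGAAGG, was looked for on the transcribed strand in the longest annotated 3′ UTR of each gene (build NCBIM37). It was found in 2 of the 10 genes, Nfib with 2 sites in 6621 bases and Nfatc1 with 1 site in 2338 bases, and in 2064 of all 19915 genes with a 3′ UTR (10.4%). The median 3′ UTR over all those genes was 893 bases, shorter than in Nfib and Nfatc1, and the comparison was not matched for length. The Nfib sites lie on the minus strand of chromosome 4 at 81938326 to 81938332 and at 81937958 to 81937964, and they are printed with the seed complement in capitals and flanking UTR bases in lower case.
Nfib site at 81938326: gaaaagttatattttATGAAGGt
Nfib site at 81937958: gtaccgtgtgaaacgATGAAGGc
Neither Nfib site was followed by an A, the base that often strengthens a seed match. The annotated 3′ UTRs of Sox9, Lhx2, Tcf7l1, Tcf7l2, Tbx1, Foxc1, Nfix and Runx1 did not hold these letters, and their annotated lengths ran from 280 bases in Tbx1 to 4188 in Runx1. Such a match is a description of the letters and not of binding.

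The control library held 4545 barcodes and 55465594 unique molecular identifiers (UMIs, each counting a captured transcript), and the induced library held 4264 and 49733560. The filter on detected genes and mitochondrial UMIs left 3936 control cells and 3628 induced cells, at medians of 12198.5 and 11752.5 UMIs. Only 11 barcodes occurred in both libraries. Clustering, with these 10 genes withheld from the genes that defined clusters, gave 28 clusters, and 18 of them met a marker rule for a cell type name. All levels are CPM, UMIs of a gene summed over a cluster and given per 1000000 UMIs of that cluster, with exact Poisson 95% intervals that cover counting error only. With 1 library per group there is no spread between mice and no test of the treatment.

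Clusters 2 and 20 were HF-SC-like and together held 348 control and 346 induced cells. They were named from Krt24, Cd34, Krt15, Postn and Myoc, of which Krt24 reached 594 CPM in cluster 2 and 824 CPM in cluster 20, and Cd34 697 and 1349 CPM. Ndufa4l2, the remaining listed marker, was not raised in either cluster. Cluster 20 was the smaller, with 31 control and 62 induced cells against 317 and 284 in cluster 2, and its median mitochondrial share was higher (7.24% and 7.06%, against 5.45% and 5.52%). The hair germ name was met by none of the clusters. Melanocyte-like cluster 25, named from another marker list, had Lgr5, Cdh3 and Tgfb2 raised (log2 folds 1.70, 1.76 and 2.77) from 20, 31 and 51 UMIs. Of the clusters without a name, cluster 12 (161 control and 116 induced cells) came closest by the mean of the hair germ markers. Of that list Lgr5 alone was raised 2-fold in cluster 12 (146 CPM). Cdh3 was at 57.3 CPM (log2 fold over the remaining cells 0.84) and Tgfb2 at 18.9 CPM (−0.30), Dkk4, Edar and Shh had at most 5 UMIs each, and the smooth muscle markers Tagln and Acta2 were among its leading genes. Cluster 16 (45 and 95 cells) had Lgr5 at 179 CPM and also Cdh3 raised 2-fold (74.6 CPM, log2 fold 1.17), and clusters 12 and 16 are called Lgr5-high here. The name is a matter of degree, since Lgr5 was also raised in cluster 2 (96.1 CPM), cluster 20 (85.4 CPM) and cluster 19 (100.1 CPM). The same held for inner bulge-like cluster 5 (60.4 CPM) and melanocyte-like cluster 25 (74.7 CPM). Cluster 6 met the rule for IFE suprabasal cells, with Lor and Flg2 among its top genes, but the upper hair follicle markers Krt79, Cst6, Defb6 and Klk10 were also raised there (log2 folds over the remaining cells 4.47, 6.07, 4.22 and 4.90), so it is called by its number.

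Across the 26 clusters with at least 50 cells, the 10 factors did not share a single peak. Tbx1, Lhx2 and Nfib were highest in HF-SC-like cluster 20 in both libraries. Sox9 peaked in the inner bulge-like cluster, Nfatc1 in the upper bulge and isthmus-like cluster, Foxc1 in a sebaceous gland-like cluster, and Runx1 in dermal papilla-like cells. The plot of levels by cluster sets all of them side by side.

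**Figure D1:**
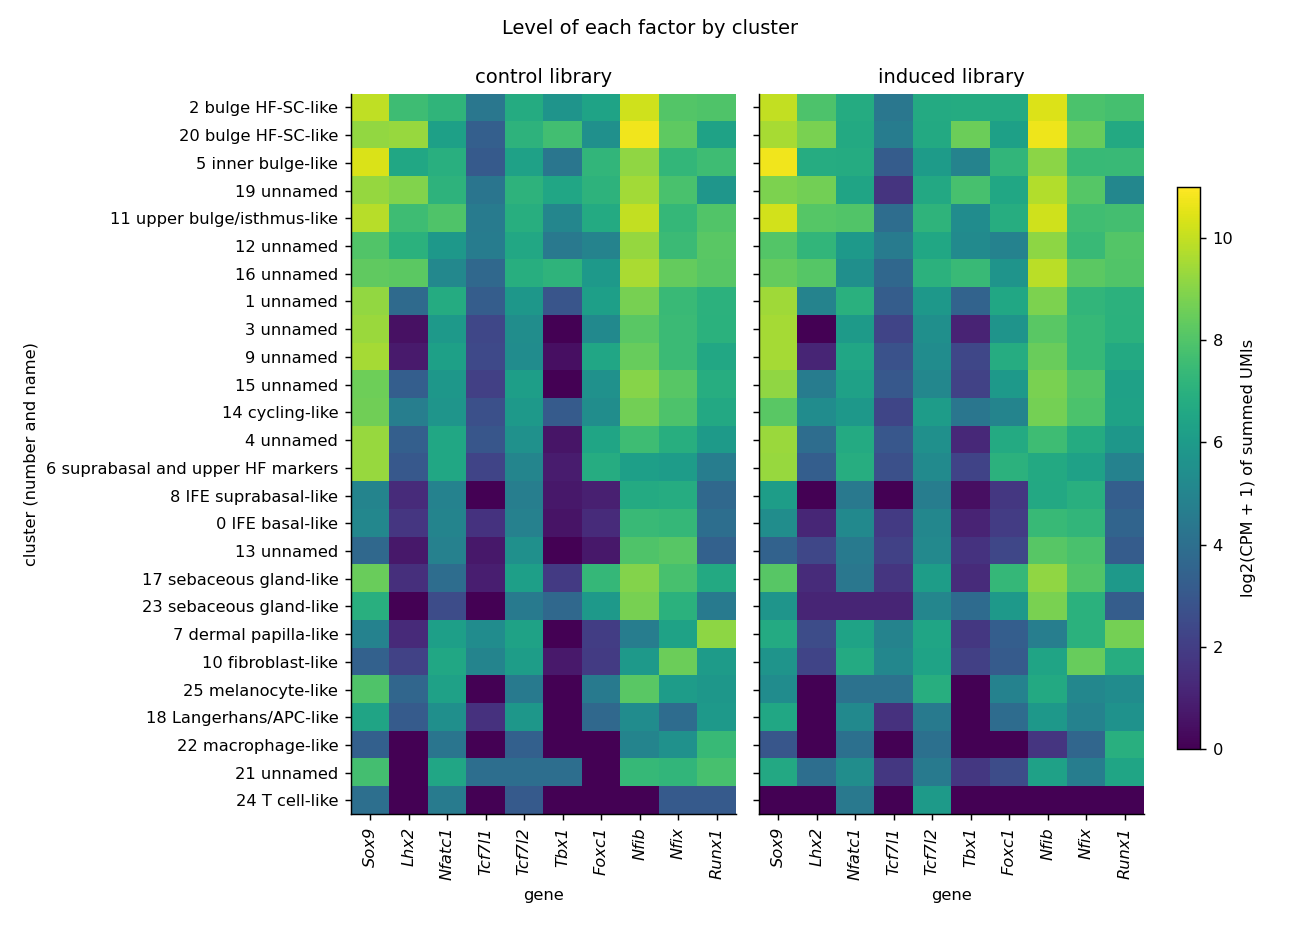
Level of each factor (columns) in each cluster of at least 50 cells (rows, with cluster number and name), control library on the left and induced library on the right, as log2(CPM + 1) of summed UMIs. In cluster 2 Nfib reached 1189 and 1354 CPM and Sox9 985 and 1003 CPM, whereas Lhx2 and Tbx1 were at 0 in T cell-like and macrophage-like cells.

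Sox9 (ENSMUSG00000000567, chr11:112782210-112787757 on GRCm38.p6) stood at 985 CPM (950.3 to 1019.6) in cluster 2 of the control and 1003 in the induced library. Inner bulge-like cells (cluster 5) held more, 1331 and 1748 CPM, and their intervals did not overlap those of the next cluster. The level in upper bulge and isthmus-like cells (cluster 11) was 903 and 1201 CPM, overlapping cluster 2 in the control only. Sox9 was thus not highest where the stem cell markers were. The Lgr5-high cluster 12 had 258 and 268 CPM, IFE basal-like cells (interfollicular epidermis, cluster 0) had 33.3 and 41.5 CPM, and macrophage-like cells, which should lack the gene, had 9.32 and 6.76 CPM.

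Lhx2 (ENSMUSG00000000247, chr2:38339271-38369737) ran from 634 CPM in cluster 20 of the control and 440 in the induced library to 0 UMIs in macrophage-like and T cell-like cells of both. Behind cluster 20 came cluster 19, an unnamed cluster led by Fgf18 and Krt75, at 489 and 407 CPM, and these neighbours overlapped in both libraries. Clusters 16, 11, 2 and 12 followed at 296 and 270, 191 and 275, 190 and 243, and 130 and 151 CPM. IFE basal-like cells were far below, at 2.35 and 1.30 CPM. High Lhx2 was limited to part of the clusters, since cluster 1 had 12.99 and 29.0 CPM and clusters 4 and 6, both with raised Krt79 and Defb6, had 9.08 and 14.4, and 7.21 and 8.66 CPM.

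Tbx1 (ENSMUSG00000009097, chr16:18580979-18590671), a T-box factor, was likewise highest in cluster 20. That cluster had 205.3 CPM in the control and 371 in the induced library, cluster 16 had 140 and 176, cluster 19 had 90.5 and 224, and cluster 2 had 50.6 and 108. In the control each of these overlapped its neighbour in the order, and in the induced library cluster 20 stood clear of the rest. IFE basal-like cells held 5 and 7 UMIs of Tbx1 and Langerhans-like cells none.

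The nuclear factor I genes were the broadest of the set. Nfib (ENSMUSG00000008575, chr4:82290173-82506751) stood at 1718 and 1666 CPM in cluster 20, 1189 and 1354 in cluster 2 and 1024 and 1179 in cluster 11, an order with no overlap between neighbours in either library. IFE basal-like cells still had 175 and 169.6 CPM, whereas the T cell-like cluster had 0 UMIs in both libraries. Nfix (ENSMUSG00000001911, chr8:84704712-84801238) varied less, and fibroblast-like cells (366 and 344 CPM) and cluster 20 (308 and 349 CPM) overlapped at the top. Cluster 2 had 262 and 238 CPM of Nfix, and IFE basal-like cells had 158 and 151.

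Of the factors tied to quiescence, Nfatc1 (ENSMUSG00000033016, chromosome 18) was highest in upper bulge and isthmus-like cells at 249 and 261 CPM, and in the control its interval overlapped that of the small cluster 19 (136 CPM, 76.0 to 224), though not that of cluster 2. Cluster 2 ranked 2 of 26 in the control at 145 CPM and 4 of 26 in the induced library at 109 CPM, overlapping its neighbours below in both. Foxc1 (ENSMUSG00000050295, chr13:31806646-31810635) was highest in sebaceous gland-like cluster 17 at 159 and 158 CPM, with inner bulge-like cells overlapping at 151 and 152. Cluster 2 ranked only 8 and 6 for Foxc1, at 81.4 and 104 CPM, and cluster 12 had 29.0 and 28.6 CPM.

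Runx1 (ENSMUSG00000022952, chr16:92601466-92826074), which pairs with Cbfb on DNA, was highest in dermal papilla-like cells at 559 and 417 CPM. The Lgr5-high clusters 12 (289 and 264 CPM) and 16 (286 and 260 CPM) came next and overlapped cluster 2 at 252 and 215 CPM in the control. HF-SC-like cluster 20 was much lower, at 80.3 and 102 CPM, so the HF-SC-like clusters differed more from each other for Runx1 than cluster 2 did from cluster 12. Langerhans-like cells also held Runx1, at 60.0 and 48.1 CPM.

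Of the TCF genes, Tcf7l1 (ENSMUSG00000055799, chr6:72626371-72789045) gave 368 and 398 UMIs in all kept cells, and every neighbouring pair among its 5 highest clusters overlapped. Dermal papilla-like and fibroblast-like cells led (39.3 and 28.9, and 30.6 and 33.0 CPM), with cluster 12 at 23.9 and 23.2 CPM. The HF-SC-like cluster 2 had 19.8 and 19.7 CPM, and cluster 20, with 2 and 12 UMIs, had 8.93 and 23.9 CPM. Tcf7l2 (ENSMUSG00000024985, chr19:55741797-55933659) had 107 and 105 CPM in cluster 2. That overlapped clusters 11, 16 and 20 in the control, and clusters 16 and 20 but not cluster 11 (142 CPM) in the induced library. IFE basal-like cells had 27.2 and 32.8 CPM of Tcf7l2.

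Taking the HF-SC-like clusters together against all remaining kept cells of the same library, 6 of the 10 factors were at least 2-fold higher in both libraries. The ratio was 12.4 (10.2 to 14.96) in the control and 10.0 (8.90 to 11.3) in the induced library for Tbx1, 10.9 and 6.69 for Lhx2, 4.31 in each for Nfib, 2.99 and 2.61 for Tcf7l1, 2.70 and 2.10 for Runx1, and 2.53 and 2.12 for Sox9. Tcf7l2 (2.32 and 1.91) and Nfatc1 (2.18 and 1.41) reached 2-fold in the control only, and Foxc1 (1.67 and 1.62) and Nfix (1.59 and 1.56) in neither. These ratios are descriptions, since the remaining cells are whatever the sort let in.

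Counting how many of the 10 factors a single cell shows depends on depth, so each cell was brought to 5000 UMIs and the expected number with a UMI was computed exactly. HF-SC-like cells then showed 5.14 factors (SD over cells 1.08, 325 cells) in the control and 5.33 (SD 1.09, 332 cells) in the induced library, against 6.45 and 6.75 before thinning. Upper bulge and isthmus-like cells reached the same range, 5.23 and 5.45, as did cluster 16 at 5.00 and 5.12. Inner bulge-like cells showed 4.49 and 4.53 and cluster 12 showed 4.02 and 4.01. Outside the follicle the number was lower, with 1.51 in each library for IFE basal-like cells, 0.803 and 0.702 for Langerhans-like cells and 0.958 and 0.689 for macrophage-like cells. The SD over cells in each of these clusters was larger than the difference between the libraries.

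**Figure D2:**
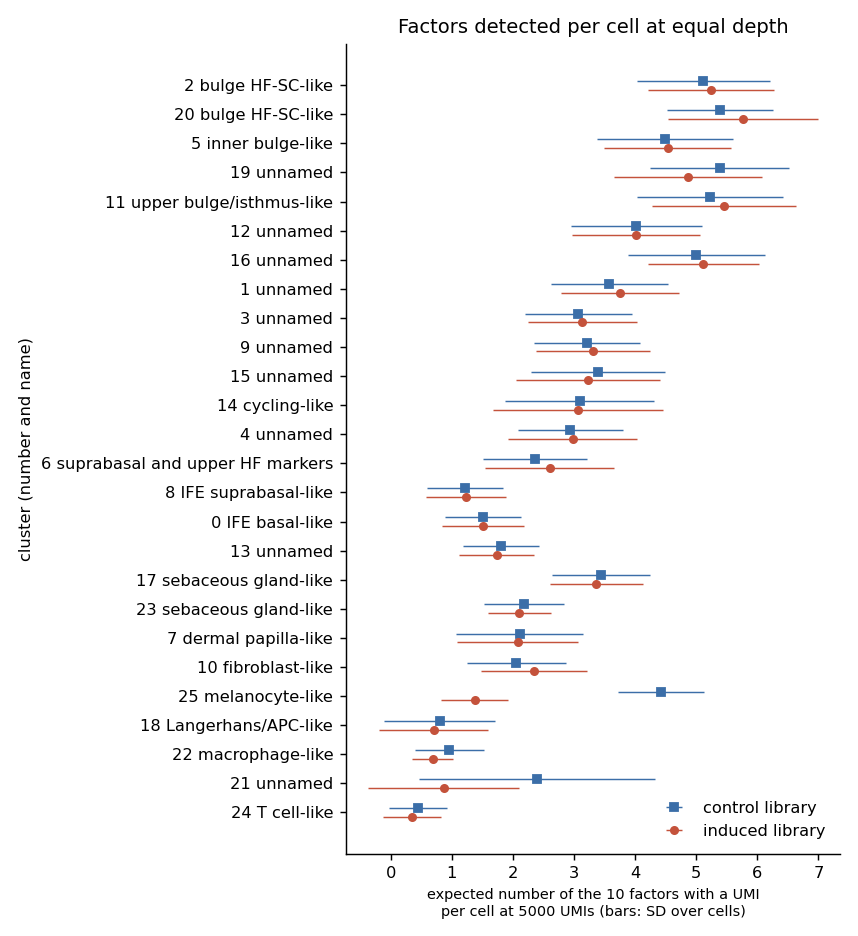
Expected number of the 10 factors with at least 1 UMI per cell after thinning to 5000 UMIs (horizontal axis), by cluster (vertical axis) and library, with points at the mean and bars at ±1 SD over cells. HF-SC-like, upper bulge and isthmus-like and Lgr5-high cluster 16 cells lie at 5 or above, and IFE basal-like cells at 1.51; the melanocyte-like point of the control rests on 3 cells.

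Patterns across clusters were compared as Pearson's r of log2(CPM + 1) over the 26 clusters among 9102 genes, taking the lower r of the libraries. These r values are descriptions, since clusters of 1 library share its depth and free RNA. Within the set, the closest pair was Sox9 and Foxc1 (r = 0.878 in the control and 0.883 in the induced library), and each was among the 3 most similar genes of the other. Lhx2 and Tbx1 followed (0.805 and 0.920), and both had Il31ra among their 3 most similar genes (0.857 and 0.874). Nfib and Nfix (0.803 and 0.866) both had Irx5, an Iroquois homeobox factor, in that place (0.881 and 0.900), with Tfap2b highest for Nfib (0.929). Id4 was most similar to Lhx2 (0.894), Aqp3 and Fst stood with Sox9 (0.869 and 0.805), Ptprk and Irx3 with Foxc1 (0.892 and 0.782), and Thsd1 with Lhx2 (0.871). Col8a2 and Sgcd stood with Tbx1 (0.849 and 0.841), Ddr1 with Nfib (0.881), and Irx2 and Aldh2 with Nfix (0.871 and 0.870). Runx1 and Tcf7l1 shared Fgfr1, a receptor of fibroblast growth factors, as the most similar gene (0.814 and 0.777), followed by Trrap (0.741) and Apbb2 (0.713) for Runx1 and by Fbln1 (0.754) and Atn1 (0.753) for Tcf7l1. The values were lower for Nfatc1 (Pptc7 at 0.758, Ncs1 at 0.754, Rnf217 at 0.742) and Tcf7l2 (Arhgef12 at 0.785, Spats2l at 0.760, Zfp503 at 0.742).

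In HF-SC-like cells, Tbx1 was the factor that differed most between the libraries. It gave 207 UMIs (60.8 CPM, 52.8 to 69.6) in the control and 504 UMIs (146 CPM, 134 to 160) in the induced library, a log2 ratio of 1.27 (1.03 to 1.51). The induced library was the higher one, and the intervals did not overlap. A gene is called here when it differed at least 1.5-fold with at least 100 UMIs over both libraries, and Tbx1 was the only called member, 1 of 10, where 11.5% of all 5638 genes counted were called in either direction (6.85% higher and 4.68% lower). Its log2 ratio lay at the 99.5th percentile of those genes. Among cells under 5% mitochondrial UMIs (111 control and 93 induced HF-SC-like cells), 3 members were called, Tbx1 at 1.34, Lhx2 at 0.68 and Nfatc1 at −0.70. The share of all genes called among those fewer cells was not computed, so this count has no background beside it.

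Thinned to 5000 UMIs per cell, 24.0% of control HF-SC-like cells (19.5 to 29.0, exact Clopper-Pearson) and 43.4% of induced ones (37.97 to 48.9) held a Tbx1 UMI, against 40.8% and 60.4% before thinning. In Langerhans-like cells, sequenced to medians of 8951.5 and 9592.5 UMIs where cluster 2 had 9993 and 10289, the count was 0 of 49 and 0 of 45 thinned cells, which allows shares of up to 6.12% and 6.67%. The 5 cells with most Tbx1 held 11.1% and 8.53% of its UMIs in HF-SC-like cells, so the UMIs were spread over many cells. Within cluster 2 Tbx1 went from 161 to 318 UMIs (log2 ratio 1.09, 0.82 to 1.38) and within cluster 20 from 46 to 186 (0.84, 0.38 to 1.35). Both were below the joint 1.27, and the Tbx1-high cluster 20 made up more of the induced HF-SC-like cells.

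The remaining factors differed less. Lhx2 went from 747 to 937 UMIs (219 to 272 CPM), a log2 ratio of 0.31 (0.17 to 0.45). Foxc1 went from 269 to 343 UMIs (0.33, 0.10 to 0.57) and Nfib from 4169 to 4825 (0.19, 0.13 to 0.25). The induced library was the higher for all of these, and none passed 1.5-fold. Sox9 was level between the libraries at 3266 and 3335 UMIs (0.01, −0.06 to 0.08). Nfatc1 was lower in the induced library, 371 against 477 UMIs (−0.38, −0.58 to −0.18), as was Runx1, 685 against 821 (−0.28, −0.43 to −0.13). Of the factors tied to quiescence, Nfatc1 was thus on the lower side and Foxc1 on the higher, with Runx1, tied to activation, on the lower. The intervals of Nfix (902 and 876 UMIs, −0.06), Tcf7l2 (372 and 360, −0.06) and Tcf7l1 (65 and 70, 0.09) held 0, and the interval of Tcf7l1 reached from −0.42 to 0.60. The median log2 ratio over the 10 factors was 0.05, the same as over all counted genes (0.05).

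The HF-SC-like clusters differed on some factors. Lhx2 was higher in the induced library in cluster 2 (605 and 716 UMIs, 0.36) and lower in cluster 20 (142 and 221 UMIs, from 634 to 440 CPM, −0.53, −0.84 to −0.21). Nfatc1 was −0.41 in cluster 2 but 0.39 in cluster 20, where 17 and 51 UMIs gave an interval of −0.39 to 1.31, and Runx1 was −0.23 and 0.31, the latter from 18 and 51 UMIs. Marker levels differed too. The sum over the 6 bulge markers was 11213.5 CPM in control and 14844.8 in induced HF-SC-like cells. Krt15 made up most of it, at 8954 and 11823 CPM, and over all kept cells Krt15 stood at 3325 and 4256 CPM. The 6 IFE basal markers summed to 17669.7 and 14998.8 CPM, and all 6 of each list had UMIs in both libraries. The 5 inner bulge markers summed to 3429 and 3308 CPM, with Krt6b at 0 in the induced cells. Krt6a made up most of that sum, and it was higher in cluster 2 (3525 CPM) than in inner bulge-like cluster 5 (1841 CPM). Fgf18, of the same list, went from 12.3 to 33.65 CPM although the sum was lower. Of the IFE basal list, Krt14 went from 9349 to 8298 CPM and Krt5 from 4745 to 5443 CPM. Most of the difference in the IFE basal sum lay in the other markers of that list. The part of these markers in the differences was not tested.

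**Figure D3:**
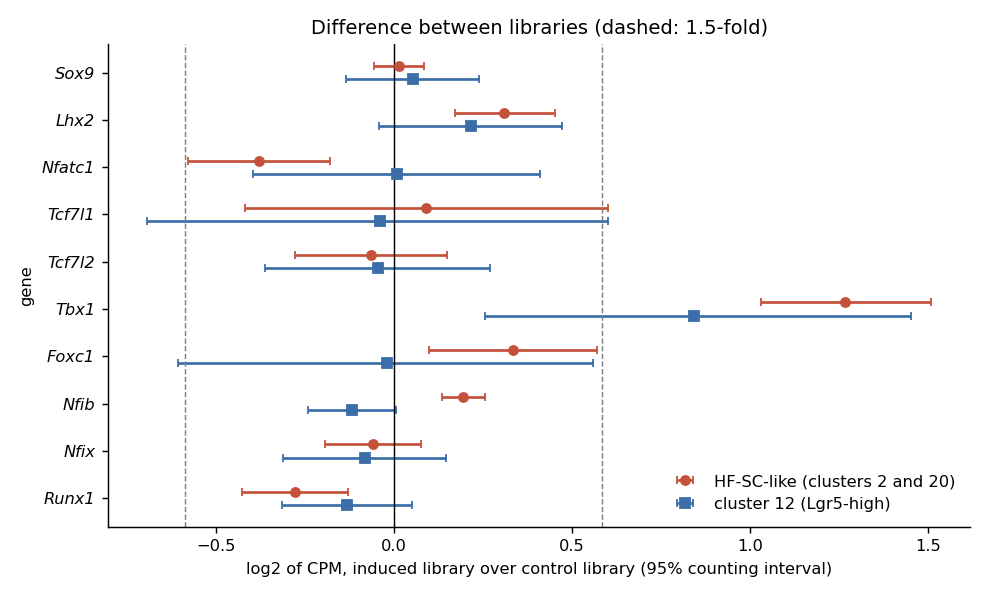
Log2 ratio of CPM, induced over control, for each factor in HF-SC-like cells (circles) and in Lgr5-high cluster 12 (squares), with exact 95% counting intervals and dashed lines at 1.5-fold. Tbx1 lies right of the 1.5-fold line in both, at 1.27 and 0.84, and no other factor passes either line.

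Tbx1 was higher in the induced library in each of the 9 clusters that had at least 20 of its UMIs, with log2 ratios from 0.30 to 1.25. In 5 of them the interval lay above 0, namely clusters 2, 12, 14 (cycling-like, 23 and 34 UMIs, 1.25), 19 (10 and 103 UMIs, 1.25) and 20. The intervals of clusters 1, 5, 11 and 16 held 0, and cluster 16, which was already at 140 CPM in the control, had a log2 ratio of 0.32. Over all kept cells Tbx1 gave 439 UMIs in the control and 1115 in the induced library, 8.68 and 24.6 CPM. That ratio, 2.83, was larger than in any of these 9 clusters. The Tbx1-high clusters 16, 19 and 20 also held more induced cells, 95, 75 and 62 against 45, 19 and 31 in the control. Lhx2, high in the same clusters, stood at 33.6 and 58.2 CPM over all kept cells. A sum over all kept cells cannot by itself tell more cells of a type from more RNA per cell. Within clusters 16, 19 and 20 the Lhx2 log2 ratio was −0.14, −0.27 and −0.53. It was above 0 in 9 of the 13 clusters with at least 20 Lhx2 UMIs. The part of cell numbers in these sums was not tested.

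**Figure D4:**
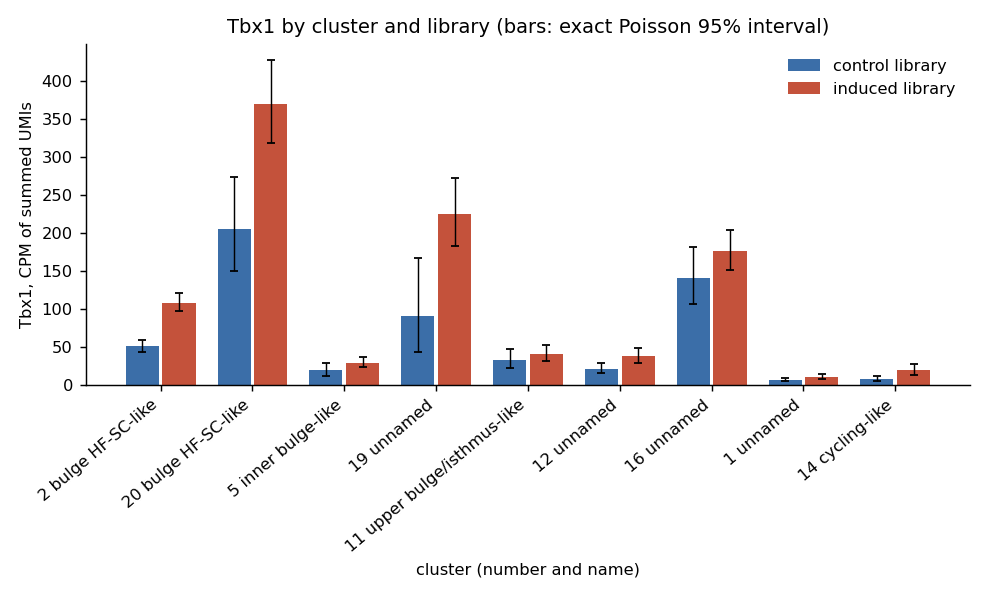
Tbx1 level in CPM (vertical axis, starting at 0) in the 9 clusters with at least 20 Tbx1 UMIs (horizontal axis), control and induced library side by side, with exact Poisson 95% intervals. The induced bar is the taller in every cluster, from 108 against 50.6 CPM in cluster 2 to 371 against 205.3 CPM in cluster 20.

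In Lgr5-high cluster 12, Tbx1 went from 41 UMIs (20.8 CPM) to 63 UMIs (37.5 CPM), a log2 ratio of 0.84 (0.26 to 1.45). It was the only called member, 1 of the 9 with at least 100 UMIs, where 10.5% of 3718 genes were called (4.92% higher and 5.54% lower). The other factors lay between −0.13 for Runx1 (568 and 443 UMIs) and 0.22 for Lhx2 (255 and 253 UMIs), and all of their intervals held 0. Sox9 (508 and 450 UMIs, 0.05), Nfib (1203 and 947, −0.12), Tcf7l2 (186 and 154, −0.04) and Nfix (358 and 289, −0.08) were near level. The sum over the 5 smooth muscle markers was 51.3 CPM in control and 499 in induced cells of this cluster (2 and 3 of 5 with UMIs, Rgs5 and Des at 0 in both), and that over the 6 cycling markers 15.8 and 55.3. Their part in these values was not tested. No factor was called when per-cell CPM were averaged, or when cluster 16 took the place of cluster 12.

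Runx1 was lower in the induced library in 19 of the 23 clusters with at least 20 of its UMIs, and 7 of those intervals lay below 0. They included IFE basal-like cells (145 and 65 UMIs, −0.48), upper bulge and isthmus-like cells (223 and 308 UMIs, 257 to 209 CPM, −0.30) and dermal papilla-like cells (370 and 520 UMIs, 559 to 417 CPM, −0.42). Fibroblast-like cells were the exception with an interval above 0, at 64.1 and 114 CPM (0.83, 0.47 to 1.20). Foxc1 had 6 intervals above 0 and none below among 17 clusters, and Nfatc1 had 3 above, in IFE basal-like cells and clusters 6 and 1, with 1 below, in cluster 2.

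Over the 15 other clusters with at least 50 cells in each library, 97 pairs of a factor and a cluster had enough UMIs and 8 were called, 7 higher and 1 lower in the induced library. Of all pairs of a gene and a cluster counted there, 6.94% were called, 3.72% higher and 3.22% lower. Within the clusters that held a called factor, the share of all genes called was 5.01% in cluster 1, 11.6% in cluster 7, 7.97% in cluster 8, 9.47% in cluster 10, 9.24% in cluster 14 and 12.3% in cluster 17. Lhx2 was higher in cluster 1, an unnamed cluster led by Serpinb11 (57 and 100 UMIs, 1.15), and in cycling-like cells (74 and 71 UMIs, 0.64, with 77.0% of the control UMIs in 5 cells). Runx1 was higher in fibroblast-like and lower in sebaceous gland-like cluster 17 cells (115 and 77 UMIs, −0.78), and Nfix higher in dermal papilla-like cells (53 and 160 UMIs, 0.67). These are single libraries, and the same clusters also differed in cell number.

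The largest ratios belonged to Sox9 in cells where it is scarce. Dermal papilla-like cells gave 19 and 132 UMIs (1.85), fibroblast-like cells 14 and 94 (2.32), and IFE suprabasal-like cluster 8 gave 97 and 197 (1.20). A few cells held much of these counts. In induced dermal papilla-like cells 5 of 222 cells had 90.2% of the Sox9 UMIs, 1 of them 48 UMIs. The share of these cells with a Sox9 UMI was 9.22% in the control and 7.66% in the induced library. In fibroblast-like cells that share was higher in the induced library, 17.96% against 7.32%, and 5 cells held 66.0% of the induced UMIs. In cluster 8 it was 23.6% in the control and 21.8% in the induced library, with 64.5% of the induced UMIs in 5 cells. Without the cells of highest doublet score, 11 and 13 UMIs remained in dermal papilla-like cells and the log2 ratio was −0.73. It was then 2.18 in fibroblast-like cells (6 and 36 UMIs) and 1.09 in cluster 8 (81 and 153 UMIs). Markers of the inner bulge, where Sox9 was highest, summed to 43.8 and 83.5 CPM in dermal papilla-like cells (3 and 4 of 5 with UMIs, Krt6b at 0 in both), and to 361 and 463 CPM in fibroblast-like cells (2 and 3 of 5, Krt75 and Krt6b at 0 in both). The 4 upper bulge and isthmus markers summed to 865 and 2178 CPM and to 409 and 804 CPM. Aspn led those sums over both libraries, at 1475 CPM in dermal papilla-like and 567 CPM in fibroblast-like cells, with Plet1 at 220 and 62.75 CPM. Timp3 led the inner bulge sum in fibroblast-like cells, at 389 CPM against 29.3 CPM for Krt6a. These sums are therefore not specific to follicle cells. Krt14 was lower in the induced library, 419 against 1028 CPM and 430.2 against 588 CPM. Their part in the Sox9 counts was not tested.

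**Figure D5:**
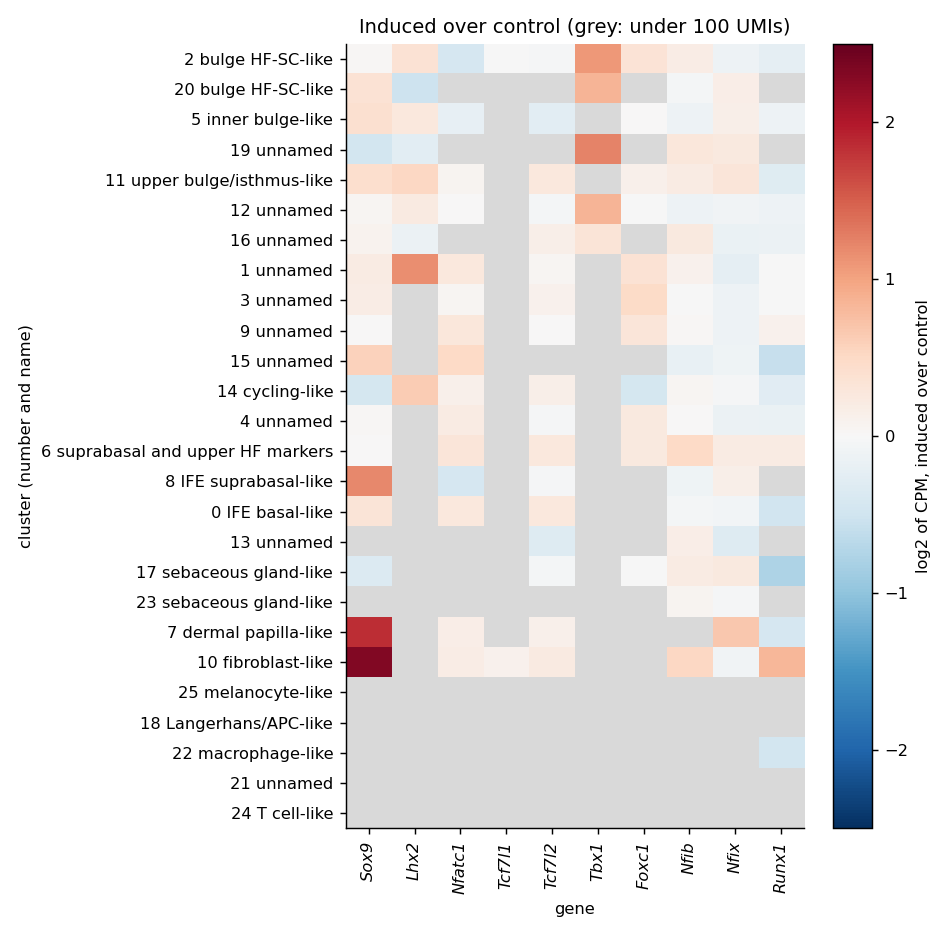
Log2 ratio of CPM, induced over control (colour, red higher in the induced library), for each factor (columns) in each cluster of at least 50 cells (rows), with pairs under 100 UMIs in grey. Tbx1 is red in every cluster with enough UMIs, Runx1 is mostly blue, and the darkest cells are Sox9 in dermal papilla-like (1.85) and fibroblast-like (2.32) cells.

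Genes linked to these factors were counted in HF-SC-like cells from 3 lists. Among partners and paralogs, 11 of 33 genes had enough UMIs and 2 were called, 1 in each direction, where 11.5% of all genes were called. Ldb1, the cofactor that bridges LIM-homeodomain proteins such as Lhx2, went from 106 to 167 UMIs (0.64), and Sox21, a SOX factor of the hair shaft, went from 136 to 47 (−1.54). Partners of Runx1 and the TCF genes did not reach the threshold, among them Cbfb (245 and 215 UMIs, −0.20), Ctnnb1 (1170 and 1189, 0.01) and Tle4 (566 and 463, −0.31). Nor did Nfia, a paralog of Nfib and Nfix (281 and 249, −0.19). The median over the 11 was −0.13, beside 0.05 over all genes.

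Among other follicle and epidermal transcription factors, 24 of 38 were counted, 1 called higher and 4 called lower, beside 6.85% and 4.68% of all genes. Hopx, a homeodomain-only protein of resting stem cells, went from 753 to 1275 UMIs (0.74). Klf5, an epithelial Krüppel-like factor, went from 771 to 444 (−0.81), Snai2 from 197 to 126 (−0.66), Gli2, a hedgehog effector, from 80 to 36 (−1.16) and Tfap2c from 72 to 46 (−0.66). Id3, a target of BMP signalling, was just under the threshold at 3287 and 4947 UMIs (0.57). The median over the 24 was −0.06.

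Of the 25 genes tied to these factors in quiescence and activation, 19 were counted, and 8 were higher and 0 lower at the threshold, beside 6.85% and 4.68% of all genes, with 17 of 19 above 0 and a median of 0.49 beside 0.05 over all genes. The called genes do not act in 1 direction. Fgf18 (42 and 116 UMIs, 1.44), a growth factor that holds follicles in rest, Cdkn1b (118 and 191, 0.68), a cell cycle inhibitor, and Sfrp1 (927 and 1614, 0.78), a secreted WNT inhibitor, oppose growth. Cdk4 (164 and 252, 0.60) and Ccnd3 (181 and 286, 0.64) drive the cell cycle, and Cdk4 is a known target of Nfatc1 repression. Ctgf (876 and 1833, 1.05), Igfbp5 (116 and 294, 1.32) and Ptch1, the hedgehog receptor (42 and 64, 0.58, just past the threshold), made up the remainder. In cells under 5% mitochondrial UMIs 2 of these genes were called higher and the median was 0.21, and in cluster 2 alone the median was 0.32. The share of all genes called in the cells under 5% was not computed.

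In cluster 12, where 4.92% of all genes were called higher and 5.54% lower, other genes of these lists were called. Among partners and paralogs 1 of 12 counted genes was called, Sox4, at 110 and 254 UMIs (1.43). Of 20 other transcription factors, Gata3 (85 and 117 UMIs, 0.69) and Tfap2c (31 and 71, 1.41) were higher and Hoxc13 (76 and 40, −0.69) and Gli1 (81 and 41, −0.75) lower. Of 15 quiescence and activation genes, Bmp2 (157 and 275, 1.03) was higher, and Ccnd1 (244 and 83, −1.32), Ccnd2 (166 and 90, −0.65) and Wif1 (111 and 43, −1.13) were lower. The median of that list was −0.09, beside −0.03 over all genes. Tfap2c was higher here and lower in HF-SC-like cells, and the difference between the populations was not tested.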

How the data were processed

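The authors used Cell Ranger for UMI counting (version 3.0.1 by the matrix headers, build mm10 by the submitters' processing notes) and deposited raw counts, whole numbers without normalization, for 1 control and 1 induced library. Cells with more than 200 and fewer than 5000 genes and under 10% mitochondrial UMIs were kept. Doublets were not removed, since Scrublet (scanpy 1.11.5) by its own threshold marked 4 and 5 barcodes, and an alternative left out the 165 and 145 highest scores. Libraries were integrated in Seurat 5.3.0 (R 4.3.3) with 2000 variable genes, 30 dimensions and resolution 0.8. Of the genes given as factors and in lists, 104 were withheld from clustering, and 31 of them would have been variable. Fgf18 and Sox10, list genes that also served as markers, were not withheld. A cluster was named if at least 3 markers with 20 UMIs were raised 2-fold, at least 1 stood among its top 10 genes and no other class had more there. That rule was set after the data were seen, so cell numbers may differ from the study's own names.

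UMIs were summed per cluster and library and scaled by the cluster total to counts per 1000000 (CPM). A ratio sets the induced library over the control, with 0.5 UMIs added before log2, with exact conditional binomial 95% intervals. Shares carry exact Clopper-Pearson intervals, and shares of 0 the limit that 3 counts allow. No test of treatment was possible with 1 library per group. The method was also run on simulated counts drawn with counting error only, so that run says nothing on variation between mice. The genes named were the 10 members, their 3 most similar genes over clusters (at least 200 UMIs in each library), every called gene of 3 related lists, and markers; uncalled list genes and pairs were named as examples after their values were seen. The members, lists and markers were chosen with earlier results of these data known. Gene positions and the microRNA are from RefSeq (GRCm38.p6), and 3′ UTRs from an annotation on NCBIM37.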

Additional observations from a re-analysis of the deposited data

Results flagged for a closer look

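For 5 factors, clusters with at least 100 UMIs lay on opposite sides of 0 with intervals that did not reach it, and the difference between those clusters was not tested. Sox9 had a log2 ratio of 2.32 in fibroblast-like cells and −0.46 in cluster 19, a difference of 2.77. Lhx2 had 1.15 in cluster 1 and −0.53 in HF-SC-like cluster 20, a difference of 1.68. Runx1 had 0.83 in fibroblast-like and −0.78 in sebaceous gland-like cells, a difference of 1.61. Nfix had 0.67 in dermal papilla-like cells and −0.32 in cluster 13, a difference of 0.99. Nfatc1 had 0.30 in cluster 6, which had both IFE suprabasal and upper hair follicle markers, and −0.41 in HF-SC-like cluster 2, a difference of 0.71. Clusters were chosen as the extremes, so these are the largest such differences for each gene.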

How the results depend on the processing

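Each result was recomputed under other cell filters, scalings, weights, clusterings and count minimums, 294 values for 29 results. Of these, 249 stayed within the counting interval or 1.5 times the count, 45 moved and 0 reversed a called value. Among single factors only Tbx1 was called, so only Tbx1 could be labelled reversed. Other factors could change sign without that label. In cluster 12 Foxc1 kept its sign in 4 of 12 alternatives, Tcf7l2 in 6 of 12 and Tbx1 in 12 of 12. No paired analysis was possible because each group holds 1 library. Tbx1 in HF-SC-like cells ran from 0.84 (cluster 20 alone) to 1.34 (under 5% mitochondrial UMIs) over 11 alternatives, and in cluster 12 from 0.32 (cluster 16 in its place) to 1.18 over 12. The 12 include the minimum of 20 UMIs, which cannot change a ratio. Its repeats of the main value in cluster 12 are among the 249 values that stayed. Under 5% mitochondrial UMIs gave 3 members called in HF-SC-like cells instead of 1, 8 called related genes instead of 15, 2 higher quiescence and activation genes instead of 8 with a median of 0.21 instead of 0.49, and 5 called related genes in cluster 12 instead of 9. The mean over cells gave 5 higher quiescence and activation genes, and no called member in cluster 12, where cells set by marker UMIs gave 2 called. No upper limit on detected genes gave 18 called related genes in cluster 12. There the choice by hair germ markers fell on another cluster, and the one sharing most cells was used. A minimum of 20 UMIs gave 18 related genes in cluster 12 and 17 pairs in other clusters instead of 8. The share of all genes called was not computed under these settings, so these counts stand without it. Alternatives added after seeing the data gave a median of 0.32 (cluster 2 alone), 4 higher quiescence and activation genes (cluster 20 alone) and 0 called members (cluster 16 in place of cluster 12). The induced minus control difference in factors per cell was 0.20 at 5000 UMIs and 0.30 unthinned. In cluster 20 alone the direction was opposite for Lhx2 (−0.53), Nfatc1 (0.39), Runx1 (0.31), Nfib (−0.05) and Nfix (0.17). The cause was not tested. Depth limits Tcf7l1 most, with 65 and 70 UMIs in HF-SC-like cells.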
